A study of Mus musculus with 188 samples.

Results

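RNA-rich cells were the 62 single mouse keratinocytes with the most reads over genes for each read over ERCC spike-in RNA, 31 of the 94 cells on each of 2 plates. Cells were ranked by this ratio, called RNA content below, within each plate. The 31 highest cells of each plate formed the RNA-rich cells and the 31 lowest, 62 in all, the RNA-poor cells they were set against. The other 64 cells lay between them and were left out of the gene comparison. All cells came from tail epidermis of Lrig1-CreERT2/RosaYFP mice at postnatal day 20, and all carry both alleles, a tamoxifen-inducible Cre recombinase at the Lrig1 locus and a yellow fluorescent reporter. Sorting kept cells without CD34, with integrin alpha 6 and without YFP, a gate for basal cells of the interfollicular epidermis that removes any cell marked through Lrig1. One cell per well was copied by Smart-seq2 with ERCC RNA in the lysis buffer, to examine how the transcriptomes of basal cells differ and how differentiation begins. The labels name no animal and no treatment, so all cells form 1 group. Cells of 1 group are not replicates, and no test was run. The plate, with its own ranking, was the only repeat.

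ERCC RNA is a synthetic mixture added in equal amount to each well, so a well with more cellular RNA should yield more reads over genes per spike-in read. The ratio also carries differences in lysis, pipetting and capture, which were not measured. Basal keratinocytes express the keratins Krt5 and Krt14 and hold to the basement membrane through integrins. Cells leaving the basal layer lower these genes and induce Krt1 and Krt10, while cycling basal cells pass through S phase, when DNA and replication enzymes are made, and through mitosis.

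The rule fixed the ratio itself, which is given only as a description. RNA content was 178.1 to 404 reads over genes per ERCC read in RNA-rich cells (median 222) and 16.6 to 153.8 in RNA-poor cells (median 116.98). On plate 1 the lowest RNA-rich cell had 178.1 and the highest middle cell 176.7, while the lowest middle cell had 125.6 and the highest RNA-poor cell 124.3. On plate 2 the lowest RNA-rich cell had 199.4 against 197.7 for the highest middle cell, and the lowest middle cell had 156.1 against 153.8 for the highest RNA-poor cell. The ranking is therefore continuous at its limits and separates no distinct populations. Mean RNA content of RNA-rich over RNA-poor cells was 2.56 on plate 1 and 1.97 on plate 2. When the ERCC rows were divided into 2 sets by alternating abundance rank, RNA content from one set and from the other had a Spearman's rho of 0.804 over the 94 cells of plate 1 and 0.624 over those of plate 2, a description of cells that share their reads over genes. Ranking by the first set alone kept 52 of 62 RNA-rich and 53 of 62 RNA-poor cells in their group, and ranking by the second set kept 48 and 49.

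**Figure D1:**
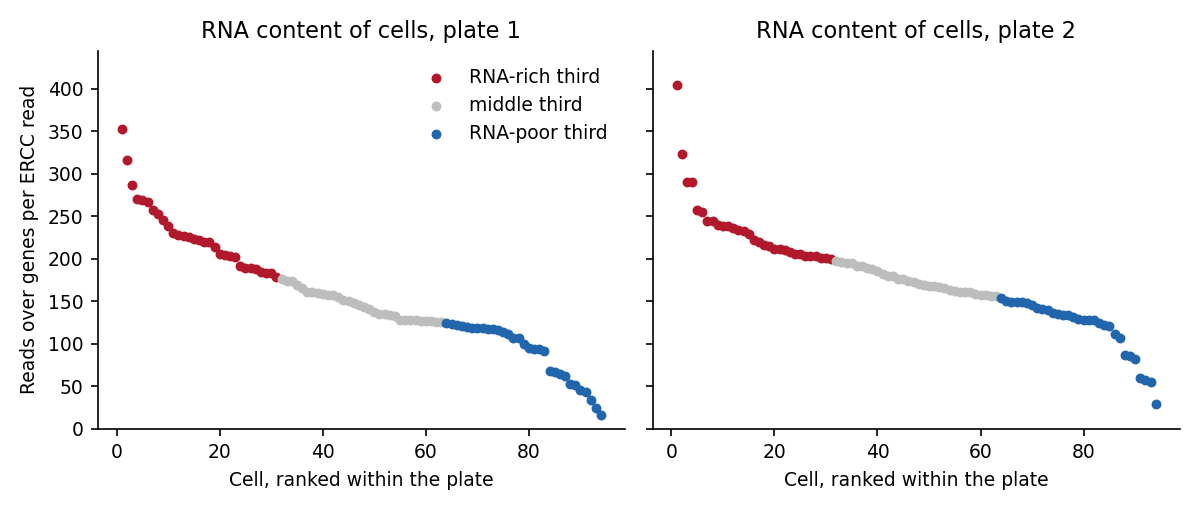
RNA content of each cell (reads over genes per ERCC read) against its rank within plate 1 and plate 2, coloured by group. RNA-rich cells run from 178.1 to 404 and RNA-poor cells from 16.6 to 153.8, and the values fall without a gap at the limits.

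Other features of the libraries moved with the groups. Median depth was 447532 reads over genes in RNA-rich cells and 328449 in RNA-poor cells, and median ERCC reads were 1845 and 3367. Genes with a read had a median of 7795 in RNA-rich and 7427 in RNA-poor cells, and of 5448 and 5208 after each cell was thinned to 75000 reads. Reads estimated to have come from other wells made up a median of 9.60% of reads over genes in RNA-rich cells and 13.1% in RNA-poor cells, with ranges of 3.68% to 57.8% and 4.59% to 47.7%. For ERCC reads, the denominator of the ranking, the order was opposite, with estimated medians of 15.99% in RNA-rich and 9.05% in RNA-poor cells and ranges of 6.26% to 75.4% and 1.73% to 28.4%. A cell was therefore counted as above background for a gene only with at least 10 CPM (reads scaled to a total of 1000000 over genes) and over 3 times the stray reads expected from the other wells. Even so, 3315 of the 3685 genes examined had more RNA-rich than RNA-poor cells above background, 89.96%, with medians of 42 of 62 RNA-rich cells and 33 of 62 RNA-poor cells per gene. Counts of cells below are to be read against those medians, and the part of depth and stray reads in them was not tested. Plate columns held 1 to 8 RNA-rich and 3 to 7 RNA-poor cells over both plates, and the lettered rows 5 to 10 and 4 to 13. Within a row the balance could differ by plate. Row G held 6 RNA-rich and 1 RNA-poor cell on plate 1, and 3 and 6 on plate 2.

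RNA-rich and RNA-poor cells both carried the genes of basal keratinocytes, and most marker lists of other cell types were low. Krt5 averaged 19159 CPM in RNA-rich and 20517 CPM in RNA-poor cells, and Itga6, which encodes the integrin of the gate, 545 and 656 CPM. The 5 Merkel cell genes had no read in either group. The summed level of the 5 T cell genes averaged 0.0190 CPM in RNA-rich cells, where 4 genes had no read, and 0 in RNA-poor cells. The 5 Langerhans cell genes averaged 0.213 and 0.260 CPM (highest cells 10.2 and 7.89), and the 4 erythroid genes 0.0211 and 0.227 CPM (highest cells 1.31 and 10.8). The 5 melanocyte genes averaged 6.13 CPM in RNA-rich and 12.8 CPM in RNA-poor cells (highest cells 173.2 and 598), the 6 fibroblast genes 17.8 and 24.6 CPM (239 and 446) and the 4 endothelial genes 1.39 and 3.88 CPM (55.7 and 220). Bulge genes averaged 22.3 and 16.7 CPM, with Cd34 and Lgr5 at 0 in both groups. Upper hair follicle genes averaged 117.4 and 108.9 CPM, mostly the protease inhibitor gene Cst6, and the 5 sebaceous gland genes 228 and 173.7 CPM (highest cells 1084 and 684), with Scd1 and Mgst1 abundant enough to be examined. Lrig1 averaged 4.29 CPM in RNA-rich and 8.54 CPM in RNA-poor cells.

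Relative to all reads, most genes differed little between the groups, and a modest set was larger or smaller in RNA-rich cells on both plates. A gene was counted as higher or lower if its mean CPM in RNA-rich cells was at least 1.5-fold above or below that in RNA-poor cells on each plate, among 3685 genes with a mean of at least 50 CPM over all cells. By this rule of size 89 genes were higher in RNA-rich cells, 2.42% of those examined, and 55 were lower, 1.49%. For comparison, 47 genes, 1.28%, passed the fold in opposite directions on the 2 plates, the background against which both lists are to be read. The minimum applied to the mean over all cells, and 47 of the 89 higher genes had under 50 CPM in RNA-poor cells and 23 of the 55 lower genes under 50 CPM in RNA-rich cells. Such genes, Acer1, Rrm2 and Fdft1 among them, were examined only through the group where they were high, and their values are given as a description. Under means of log2(CPM + 1), 61 of the 89 higher and 12 of the 55 lower genes remained past the fold, and with each plate divided at its median 23 and 13. The median log2 difference over all 3685 genes was 0.03, and the differences on plate 1 and plate 2 had a Pearson's r of 0.204 across genes, which are not independent replicates. Differences of any size in the same direction on both plates were positive for 1145 genes, 31.1%, and negative for 920 genes, 25%. Choosing RNA-rich and RNA-poor cells by one set of ERCC rows kept 39 of the 89 higher and 25 of the 55 lower genes past the fold, and the other set kept 35 and 20.

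**Figure D2:**
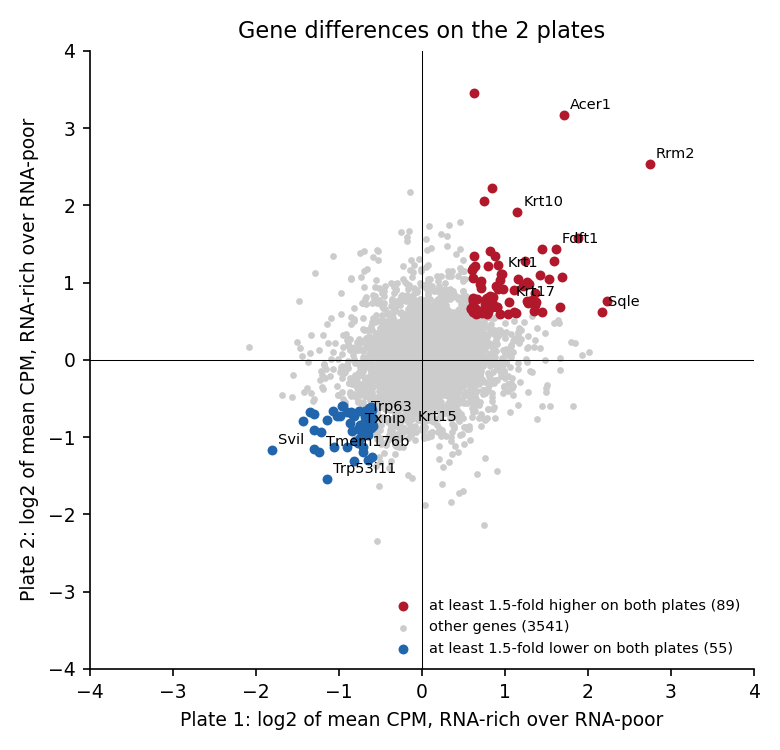
Log2 ratio of mean CPM in RNA-rich over RNA-poor cells on plate 1 (x axis) and plate 2 (y axis) for 3685 genes, with 89 genes at least 1.5-fold higher on both plates in red and 55 at least 1.5-fold lower in blue. Most genes lie in a round cloud near 0, and Rrm2 and Acer1 stand far out at the upper right.

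On counts scaled to ERCC reads, nearly every gene was higher in RNA-rich cells, a direction that the rule fixes. The median log2 difference was 1.18 over all genes, against 1.15 for the ratio of mean RNA content. Genes under 1.5-fold on this scale on both plates numbered 56, 1.52% of those examined, and 30 of them were also among the 55 genes lower by CPM. Only Svil, which encodes the actin-binding protein supervillin, was lower in RNA-rich cells on both plates, 0.0271% of genes. Members of the 56 named here were selected on ERCC-scale differences and abundance after their values were seen, and not by strict rank. Itgb4, the hemidesmosome integrin, had a log2 difference of 0.32 on the ERCC scale. The chemokine gene Cxcl14 had 0.38 and the transcription factor gene Sox15 0.34. By CPM all 3 had lower means in RNA-rich cells, and Cxcl14 and Sox15 passed the fold. Megf6 and Nxn, also among the 56, were passed over, with means of 133.5 and 132.5 CPM over all cells. Sox15 had 130.6 CPM.

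Genes of early differentiation took a larger share of the RNA in RNA-rich cells. Of 13 early differentiation genes examined from a list of 17, Krt1, Krt10 and Ovol1 were at least 1.5-fold higher on both plates, none was lower, and 10 had positive differences on both plates. The median log2 difference was 0.41, against 0.03 over all genes. Krt10, the suprabasal keratin, ranged from 185.4 to 45289 CPM in RNA-rich cells (median 1683) and from 201 to 28591 CPM in RNA-poor cells (median 1033). Its mean was 8154 ± 11288 CPM in RNA-rich and 2648 ± 5456 CPM in RNA-poor cells (SD over 62 cells each), with log2 differences of 1.15 on plate 1 and 1.91 on plate 2. The groups overlapped over most of their range, and the means lay further apart than the medians. Krt10 was above background in 29 RNA-rich cells, 46.8% (exact 95% interval 33.98% to 59.9%), and in 11 RNA-poor cells, 17.7% (9.20% to 29.5%). Its partner Krt1 averaged 3746 ± 6177 CPM in RNA-rich and 1812 ± 4294 CPM in RNA-poor cells, with medians of 1277 and 876 CPM.

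Ovol1, a transcription factor of epidermal differentiation, averaged 100.1 CPM in RNA-rich and 61.7 CPM in RNA-poor cells, with medians of 40.2 and 8.72 CPM. Broadly expressed members of the list moved less. Ly6d averaged 14212 and 10672 CPM, Krtdap 5736 and 4629 CPM, and the calmodulin-like gene Calm4 4539 and 3228 CPM in RNA-rich and RNA-poor cells, all under 1.5-fold on plate 1. Krt2, a keratin of the upper layers of tail skin and the sole gene of the late differentiation list abundant enough to be examined, averaged 6334 CPM in RNA-rich and 2532 CPM in RNA-poor cells, but its medians of 1271 and 1270 CPM were alike and its log2 difference was 0.32 on plate 1 against 1.75 on plate 2. Across the cells of a plate, Krt10 hardly followed RNA content, its rho being -0.04 on plate 1 and 0.21 on plate 2.

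Acer1, Cers4, Gjb5 and Endou were among the 15 genes with the largest differences. Acer1, an alkaline ceramidase of the epidermis, ranged from 0 to 1517 CPM in RNA-rich cells (median 5.29) and from 0 to 289 CPM in RNA-poor cells (median 3.83). Its means were 104.4 and 13.99 CPM, 7.46-fold higher in RNA-rich cells, and it was above background in 14 RNA-rich and 4 RNA-poor cells. The medians were close, and the highest cells lay far above the rest. Cers4, a ceramide synthase, averaged 74.7 CPM in RNA-rich and 36.1 CPM in RNA-poor cells and was above background in 22 and 11 cells. Gjb5, an epidermal gap junction connexin, averaged 187.5 CPM in RNA-rich and 87.4 CPM in RNA-poor cells, with medians of 100.4 and 19.5 CPM, and was above background in 40 and 22 cells. Endou, a poly(U)-specific endoribonuclease, averaged 123.2 and 51.2 CPM and was above background in 28 and 12 cells. Among the other higher genes, named after their values were seen, Fabp5, the epidermal fatty acid-binding protein, had log2 differences of 0.84 on plate 1 and 2.22 on plate 2, and Lypd3, a membrane protein of suprabasal cells, of 0.83 and 0.77.

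**Figure D3:**
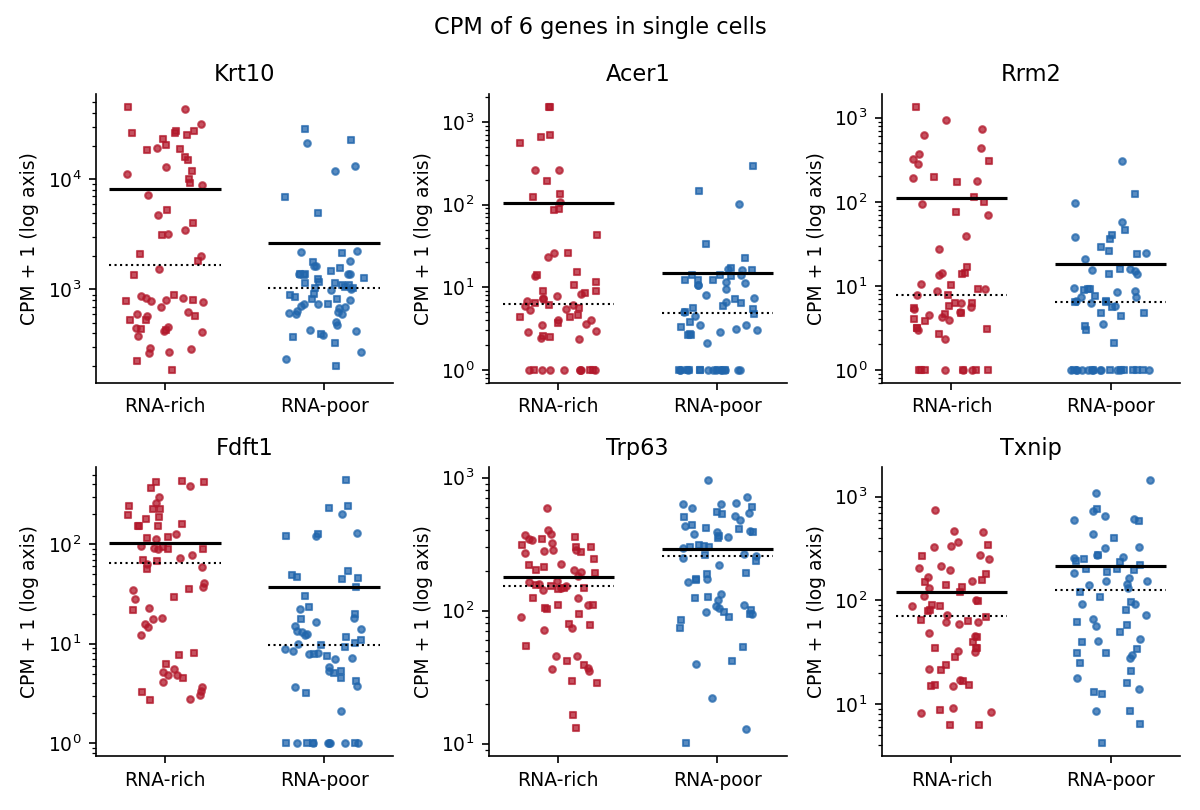
CPM plus 1 on a log axis of Krt10, Acer1, Rrm2, Fdft1, Trp63 and Txnip in 62 RNA-rich cells (left) and 62 RNA-poor cells (right), circles for plate 1 and squares for plate 2. Solid lines are means and dotted lines medians: Acer1 and Rrm2 have near-equal medians and some very high RNA-rich cells, while the medians of Krt10, Fdft1, Trp63 and Txnip differ along with their means.

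Genes of the basal state took a smaller share in RNA-rich cells, by small amounts. All 15 basal keratinocyte genes were abundant enough to be examined. Trp63 alone was at least 1.5-fold lower on both plates, none was higher, 11 had negative differences on both plates and the median log2 difference was -0.31. Trp63, which encodes the p63 transcription factor of stratified epithelia, ranged from 12.1 to 592 CPM in RNA-rich cells (median 152.5) and from 9.10 to 951 CPM in RNA-poor cells (median 257). Its mean was 176.9 ± 120.5 CPM in RNA-rich and 289 ± 207 CPM in RNA-poor cells, with log2 differences of -0.69 and -0.74 on plates 1 and 2. Although the groups overlapped, the median of the RNA-rich cells lay below that of the RNA-poor cells on this gene and on Krt15, Col17a1 and Itga6. Krt15, a basal keratin, averaged 4065 CPM in RNA-rich and 5765 CPM in RNA-poor cells, with log2 differences of -0.12 on plate 1 and -0.87 on plate 2. Col17a1, the hemidesmosomal collagen, averaged 1974 and 2554 CPM, and Krt14 28473 and 34387 CPM.

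Scaled to ERCC reads these genes were still higher in RNA-rich cells, a direction that the rule fixes, by less than the bulk of the transcriptome. Values on this scale and shares of the surplus restate the CPM differences and are no separate result. Trp63 was 1.36-fold, Col17a1 1.64-fold, Krt15 1.50-fold and Krt14 1.82-fold higher on that scale, against 7.67-fold for Krt10. The basal list made up 6.94% of ERCC-scaled reads in RNA-poor cells and 4.78% of the surplus of RNA-rich over RNA-poor cells. The early differentiation list made up 2.63% of reads in RNA-poor cells and 5.77% of the surplus. Some further regulators of basal or progenitor keratinocytes, selected on their lower CPM after their values were seen, were among the 55 genes lower by CPM. This choice leaves out Ezh2, which passed the fold upward, with log2 differences of 0.62 on plate 1 and 1.19 on plate 2. The genes named therefore do not show how such regulators moved as a set. Log2 differences on plates 1 and 2 were -0.75 and -1.01 for Snai2, a zinc finger repressor, -0.68 and -0.86 for Fgfr2, a growth factor receptor, -0.63 and -0.87 for Id3, an inhibitor of helix-loop-helix factors, and -0.69 and -0.68 for Sox15.

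Genes of DNA synthesis were higher in RNA-rich cells through a minority of cells. Of 19 S phase genes examined from a list of 33, Rrm2 and Mcm5 passed the fold, none was lower, and 15 had positive differences on both plates. The median log2 difference was 0.47, with 0.66 on plate 1 and 0.25 on plate 2. Rrm2, the small subunit of ribonucleotide reductase, ranged from 0 to 1336 CPM in RNA-rich cells (median 6.71) and from 0 to 309 CPM in RNA-poor cells (median 5.37). Its mean was 109.3 ± 243 CPM in RNA-rich and 17.2 ± 43.5 CPM in RNA-poor cells, with log2 differences of 2.75 and 2.54 on the 2 plates. Its rho with RNA content was 0.26 on plate 1 and 0.03 on plate 2. It was above background in 17 RNA-rich and 5 RNA-poor cells, and its near-equal medians place the difference in those cells. Mcm5, a subunit of the replicative helicase, averaged 151.2 CPM in RNA-rich and 84.7 CPM in RNA-poor cells. Pcna, the replication clamp, averaged 194 CPM in RNA-rich and 127.4 CPM in RNA-poor cells and stayed under the fold on plate 2, where its log2 difference was 0.34.

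Of 6 G2 and mitosis genes examined from a list of 42, none passed the fold in either direction, with a median log2 difference of 0.28. The summed level of the list averaged 1072 CPM in RNA-rich and 709 CPM in RNA-poor cells, a ratio of 1.51, while its medians of 329 and 364 CPM ran the other way. The S phase list averaged 2472 and 1651 CPM, a ratio of 1.50, with medians of 1124 and 1135 CPM, and no difference between the lists was tested. Its medians in RNA-rich and RNA-poor cells were 1843 and 1140 CPM on plate 1 but 962 and 1130 CPM on plate 2. Its rho with RNA content was 0.26 and 0.02 on plates 1 and 2. Mki67 averaged 59.1 CPM in RNA-rich and 66.1 CPM in RNA-poor cells, and Top2a 77.3 and 41.9 CPM, with log2 differences of 0.47 and 1.79 on plates 1 and 2. Cells with at least 25% of the list at 10 CPM or more, called the G2/M class, numbered 16 of 62 RNA-rich cells, 25.8% (exact 95% interval 15.5% to 38.5%), and 10 of 62 RNA-poor cells, 16.1% (8.02% to 27.7%). The 64 cells between them held 19, 29.7% (18.9% to 42.4%), so the share did not rise steadily with RNA content. The difference of 9.68 percentage points between RNA-rich and RNA-poor cells had an interval of -4.76 to 23.7. It was 4.84 points after thinning to 75000 reads. A single read then passed 10 CPM, and the looser class held 24 RNA-rich and 21 RNA-poor cells. Unthinned, the difference was 17.7 points after stray reads were subtracted and 15.2 between the upper and lower 25% of each plate. It was 18.9 without the early differentiation class defined below and -0.758 without the S phase class. In 27 cells of the series the share of list genes lay between 20% and 30%, near the limit. Outside the G2 and mitosis list, Tubb5, a beta tubulin with mean levels of 726 CPM in RNA-rich and 465 CPM in RNA-poor cells, passed the fold. So did H2afx, a histone variant with 54.1 and 26.9 CPM. Without G2/M class cells H2afx had a log2 difference of -0.46.

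Enzymes of cholesterol synthesis had the largest median difference of the lists with at least 4 examined genes over the 2 plates together, while on plate 2 early differentiation had 0.62 and cholesterol synthesis 0.59. Of 19 genes, 7 were abundant enough to be examined, and all 7 had positive differences on both plates, with a median log2 difference of 0.77. Fdft1, Msmo1, Mvk and Sqle passed the fold. Fdft1, squalene synthase, ranged from 1.68 to 426 CPM in RNA-rich cells (median 64.1) and from 0 to 437 CPM in RNA-poor cells (median 8.71). Its mean was 101.1 ± 117.04 CPM in RNA-rich and 36.01 ± 74.7 CPM in RNA-poor cells, with log2 differences of 1.61 and 1.44. It was above background in 39 RNA-rich cells, 62.9% (49.7% to 74.8%), and 13 RNA-poor cells, 20.97% (11.7% to 33.2%). The medians over all examined genes were 42 and 33 cells. Fdft1 was examined only through its level in RNA-rich cells, so its values are a description. Its rho with RNA content was 0.32 on plate 1 and 0.28 on plate 2.

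Sqle, squalene epoxidase, averaged 134.2 CPM in RNA-rich and 60.8 CPM in RNA-poor cells, with medians of 74.5 and 9.96 CPM and log2 differences of 2.17 on plate 1 and 0.61 on plate 2. Mvk, mevalonate kinase, averaged 117.5 and 68.9 CPM, and Msmo1, a methylsterol monooxygenase, 117.2 and 67.7 CPM. Hmgcs1, which makes the precursor of mevalonate and was the most abundant member, averaged 312 CPM in RNA-rich and 271 CPM in RNA-poor cells and did not pass the fold. The summed level of the 19 genes had a median of 1182 CPM in RNA-rich and 861 CPM in RNA-poor cells, with ranges of 302 to 3369 and 199 to 5079 CPM. Its rho with RNA content was 0.39 on plate 1 and 0.28 on plate 2. That was the highest on both plates among the lists with a rho, which the T cell and Merkel cell lists lacked.

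Promoter sequences are shown for 2 cholesterol genes and 2 S phase genes that passed the fold, to set CCAAT boxes, the letters bound by the factor NF-Y, beside these lists. The 250 bases before each gene's start were taken from RefSeq on GRCm38.p6, 5′ to 3′ on the gene's strand, and capitals mark CCAAT or its reverse complement ATTGG. Windows were chr5:114444019-114444268 on the plus strand for Mvk, chr8:64733579-64733828 on the minus strand for Msmo1, chr12:24708004-24708253 on the plus strand for Rrm2 and chr8:75109259-75109508 on the plus strand for Mcm5.
Mvk: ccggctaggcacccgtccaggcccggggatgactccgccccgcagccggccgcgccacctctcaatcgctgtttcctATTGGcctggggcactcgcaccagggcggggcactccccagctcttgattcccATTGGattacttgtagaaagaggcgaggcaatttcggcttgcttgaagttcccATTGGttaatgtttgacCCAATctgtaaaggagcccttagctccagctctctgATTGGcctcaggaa
Msmo1: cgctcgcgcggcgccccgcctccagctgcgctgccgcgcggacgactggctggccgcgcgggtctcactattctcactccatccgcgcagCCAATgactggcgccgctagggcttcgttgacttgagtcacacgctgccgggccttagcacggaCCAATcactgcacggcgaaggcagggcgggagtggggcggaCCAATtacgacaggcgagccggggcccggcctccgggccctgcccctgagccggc
Rrm2: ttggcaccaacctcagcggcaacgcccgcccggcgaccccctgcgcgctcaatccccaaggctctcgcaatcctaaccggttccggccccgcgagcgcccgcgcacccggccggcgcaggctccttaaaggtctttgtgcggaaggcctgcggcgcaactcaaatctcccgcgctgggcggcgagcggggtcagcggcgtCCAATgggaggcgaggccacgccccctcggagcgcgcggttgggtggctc
Mcm5: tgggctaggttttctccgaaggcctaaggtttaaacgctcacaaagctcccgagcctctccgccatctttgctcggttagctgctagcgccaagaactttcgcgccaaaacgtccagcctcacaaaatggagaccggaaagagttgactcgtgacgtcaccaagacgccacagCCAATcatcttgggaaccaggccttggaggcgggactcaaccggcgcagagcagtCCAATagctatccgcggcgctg

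The Mvk window held 5 matches on either strand, the Msmo1 window 3, the Mcm5 window 2 and the Rrm2 window 1. CCAAT or ATTGG occurred in the windows of all 13 cholesterol genes with a sequence, against 37.5% of 27025 genes with one and 39.9% of the 2973 examined genes with one. In the S phase list 16 of 25 windows held it, 64%. Windows of 31 of 70 genes higher in RNA-rich cells, 44.3%, and 17 of 43 lower genes, 39.5%, held it, shares near that of all examined genes. The E2F letters TTTCGCGC, TTTGGCGC, TTTCCCGC or TTTGCCGC, on either strand, occurred in 7 of 25 S phase windows, 28%, and 5.11% of examined genes, and the sterol element letters TCACNCCAC in 1 of 13 cholesterol windows and 1.28% of examined genes. A match describes letters only, not binding.

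Other genes among the 15 with the largest differences were found in many cells. Ralgps2, an exchange factor for Ral GTPases, averaged 83.8 ± 82.4 CPM in RNA-rich and 30.9 ± 41.3 CPM in RNA-poor cells, with medians of 62.2 and 18.1 CPM. It was above background in 44 RNA-rich and 20 RNA-poor cells, and its log2 differences were 1.45 and 1.43. Slc31a1, a copper importer, averaged 107.1 and 44.2 CPM and was above background in 44 and 19 cells. Fam83b, a scaffold protein of growth factor signalling, averaged 81.6 CPM in RNA-rich and 32.4 CPM in RNA-poor cells, with medians of 56.5 and 9.11 CPM. Erp44, a chaperone of the early secretory pathway, averaged 105.3 and 46.5 CPM with medians of 85.5 and 20.3 CPM. Slfn9, Dhrs1 and Mtfr1l averaged 73.5, 69.8 and 69.3 CPM in RNA-rich cells and 27.3, 27.8 and 32.4 CPM in RNA-poor cells. All these genes had means under 50 CPM in RNA-poor cells, so their values are a description. Without G2/M class cells the log2 difference of Slfn9 was 0.23 in place of 1.43.

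The 15 genes furthest below in RNA-rich cells had modest levels. Trp53i11, a target of p53, ranged from 0 to 419 CPM in RNA-rich cells (median 25.8) and from 0 to 1220 CPM in RNA-poor cells (median 83.95). Its means were 61.9 and 156.05 CPM, with log2 differences of -1.14 and -1.54. Ftl1, the ferritin light chain, averaged 51.2 CPM in RNA-rich and 109.1 CPM in RNA-poor cells, with medians of 24.7 and 76.9 CPM, and reads it shares with close copies are uncertain. Txnip, an inhibitor of thioredoxin and of glucose uptake, averaged 120.6 ± 138.8 CPM in RNA-rich and 211 ± 271 CPM in RNA-poor cells, with medians of 69.6 and 125.3 CPM. All 3 had lower medians in RNA-rich cells and overlapped over most of their range.

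Tmem176b, a membrane protein, averaged 45.9 CPM in RNA-rich and 106.9 CPM in RNA-poor cells, and Serpina3b, a protease inhibitor, 36.5 and 85.7 CPM. Hopx, a homeodomain protein of epithelial progenitors, averaged 54.03 CPM in RNA-rich and 98.99 CPM in RNA-poor cells, with 38 and 37 cells above background. Numb, an inhibitor of Notch signalling, averaged 36.3 and 76.3 CPM. Of 4 apoptosis and p53 target genes examined, Trp53inp1 was lower, at 37.9 CPM in RNA-rich and 80.1 CPM in RNA-poor cells, while its medians of 13.04 and 12.04 CPM ran the other way. The other genes of the 15 lowest were Svil, Sin3a, Pomgnt1, Gga2, Riok1, Dedd2 and Nek9, with means of 28.04 to 46.3 CPM in RNA-rich and 69.03 to 97.9 CPM in RNA-poor cells.

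Lists of protein synthesis and energy supply held no gene past the fold, against 2.42% higher and 1.49% lower over all genes, shares at which lists of this size would hold few or none. None of 54 cytosolic ribosomal protein genes, 31 translation factor genes, 30 ribosome biogenesis genes, 26 splicing factor genes, 31 proteasome genes, 60 nuclear oxidative phosphorylation genes or 10 glycolysis genes passed the fold in either direction. Their median log2 differences were -0.07, 0.05, 0.09, -0.02, 0.15, -0.01 and 0.29. Eef1a1, an elongation factor, averaged 2506 CPM in RNA-rich and 2492 CPM in RNA-poor cells, and Actb, beta actin, 6633 and 6537 CPM, so both were about 2.27-fold higher on counts scaled to ERCC. Of the 16 examined genes of RNA polymerase II and elongation, Gtf2b alone passed the fold, with 87.3 and 43.7 CPM. Small shifts with the same sign on both plates were more frequent than over all genes in a few lists. Differences were positive for 7 of 10 glycolysis, 15 of 31 proteasome and 15 of 30 ribosome biogenesis genes, against 31.1% of all genes, and negative for 29 of 54 ribosomal protein genes, against 25%.

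Mitochondrial ribosomal RNA took a smaller share in RNA-rich cells on both plates, while mitochondrial messages differed little on plate 1. The ribosomal RNA mt-Rnr2 had a median of 27843 CPM in RNA-rich and 33389 CPM in RNA-poor cells, with log2 differences of -0.22 and -0.29, and mt-Rnr1 averaged 9483 and 11320 CPM. Neither passed the fold. All mitochondrial genes together made up a median of 6.13% of reads in RNA-rich and 7.06% in RNA-poor cells, and their rho with RNA content was -0.15 on plate 1 and -0.38 on plate 2. The 7 mitochondrial messages with reads had a median log2 difference of -0.14, with -0.07 on plate 1 and -0.26 on plate 2. None passed the fold, and 4 had negative differences on both plates. Their summed medians on plate 1 were 23183 CPM in RNA-rich and 22514 CPM in RNA-poor cells. The rho of this sum with RNA content was 0.02 on plate 1 and -0.26 on plate 2. Lists with a single call were tubulin and stathmin (Tubb5 of 4 examined), histone variants and HMG (H2afx of 7), wound and stress keratinocyte genes (Krt17 of 4) and sebaceous gland genes (Mgst1, a microsomal glutathione transferase, of 2). Heat shock (7 examined), immediate early (7), endoplasmic reticulum (19), actin cytoskeleton (14), lysosome (12) and cell cycle inhibitor and D cyclin genes (7) had none, with median log2 differences of 0.06, -0.06, 0.05, -0.04, -0.08 and -0.01.

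**Figure D4:**
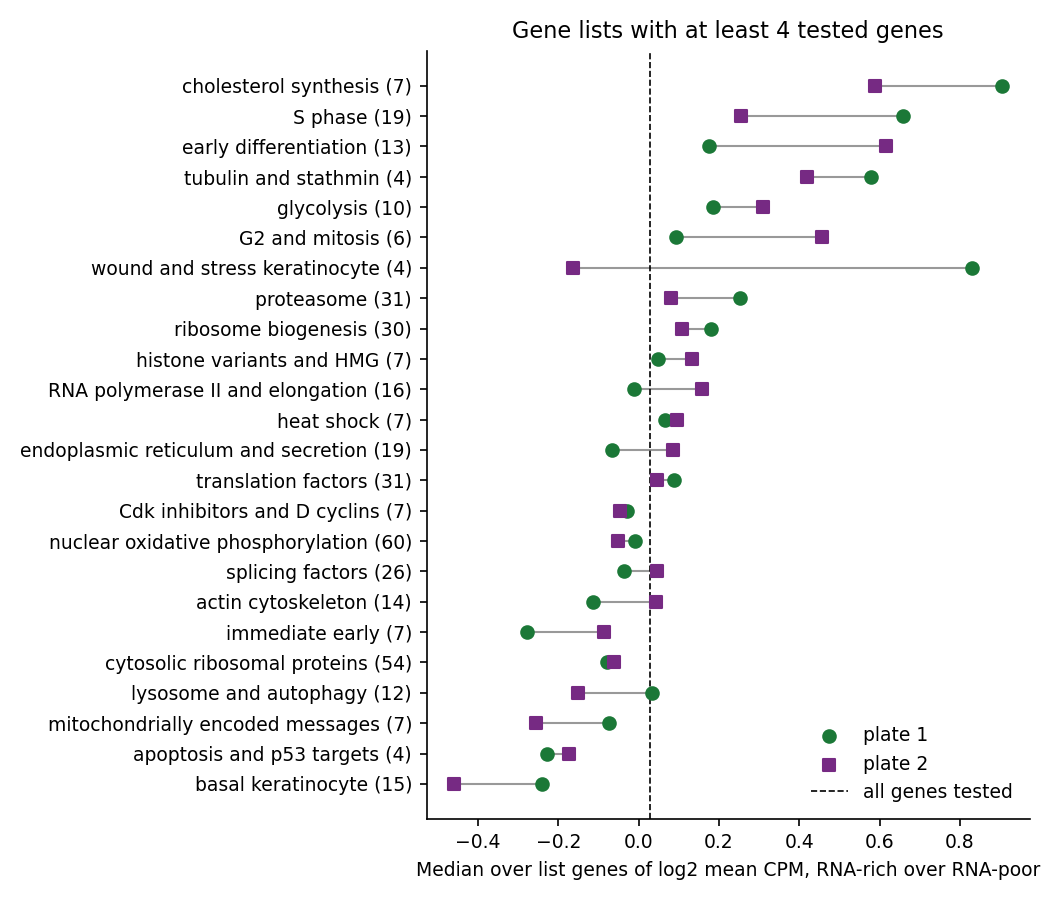
Median log2 ratio of mean CPM in RNA-rich over RNA-poor cells for each gene list with at least 4 examined genes (number in brackets), on plate 1 (circles) and plate 2 (squares). Cholesterol synthesis, S phase and early differentiation lie highest on the 2 plates together and basal keratinocyte genes lowest, while most lists lie near the dashed line of all genes.

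The cells that carried the differentiation genes and those that carried the S phase genes were largely different cells. A cell was placed in the early differentiation or the S phase class if its summed CPM over the list was in the top 25% of its plate. The early differentiation class held 27 of 62 RNA-rich cells, 43.5% (exact 95% interval 30.99% to 56.7%), and 10 of 62 RNA-poor cells, 16.1% (8.02% to 27.7%). By plate it held 12 RNA-rich and 7 RNA-poor cells of 31 each on plate 1 and 15 and 3 on plate 2. The difference of 27.4 percentage points had an interval of 11.4 to 41.7, which covers counting error between cells and not differences between animals. The S phase class held 18 RNA-rich and 14 RNA-poor cells, a difference of 6.45 points with an interval of -8.91 to 21.4. By plate it held 10 RNA-rich and 7 RNA-poor cells on plate 1 and 8 and 7 on plate 2. Only 1 RNA-rich and 1 RNA-poor cell belonged to both classes. Cells in neither class made up 18 of 62 RNA-rich cells, 29.03% (18.2% to 41.9%), 39 of 62 RNA-poor cells, 62.9% (49.7% to 74.8%), and 37 of the 64 cells between them.

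**Figure D5:**
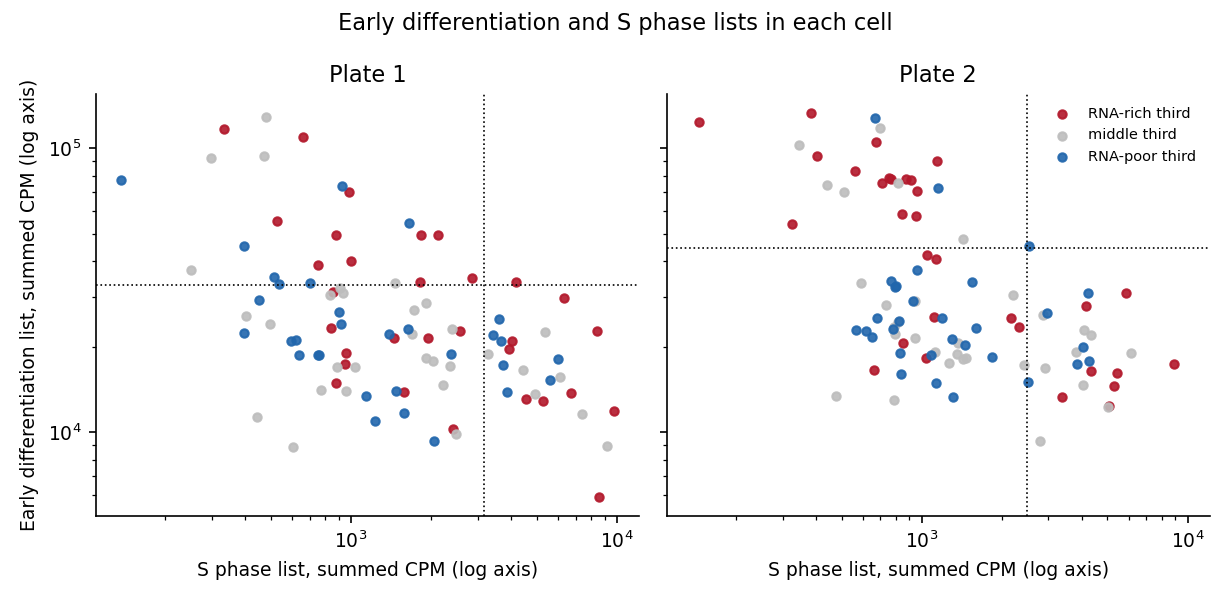
Summed CPM of the early differentiation list (y axis) against the S phase list (x axis) for each cell on plates 1 and 2, both on log axes, coloured by group, with dotted lines at the top 25% of each plate. RNA-rich cells fill 27 of the positions in the early differentiation class and RNA-poor cells 10, and the corner of both classes is nearly empty.

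Differences were also taken without the cells of a class. Leaving out a class removes, by construction, the highest cells for its own genes and for genes high in the same cells, and from the early differentiation class more RNA-rich than RNA-poor cells, so these values are a description and name no cause. Without the early differentiation class the log2 difference of Krt10 was 0.07 in place of 1.62 and that of Krt1 -0.15 in place of 1.05. Genes outside that list also changed. Acer1 had -0.36 in place of 2.90, Cers4 -0.02 in place of 1.05, Mvk -0.31 in place of 0.77, Sqle 0.08 in place of 1.14 and Msmo1 0.30 in place of 0.79, whereas Fdft1 kept 0.96 of its 1.49. Rrm2 then had a larger difference, 3.20 in place of 2.67, and the S phase class differed by 23.6 percentage points between RNA-rich and RNA-poor cells. Without the S phase class Rrm2 had 1.23 and Mcm5 -0.06 in place of 0.84. Without both classes, 18 RNA-rich and 39 RNA-poor cells were left. Among them 33 of the 89 higher and 23 of the 55 lower genes remained past the fold, so most did not. The part of the smaller number of cells in this loss was not tested. Some genes kept values close to those over all cells and are named after their values were seen. Among these were Ralgps2 with 1.45, Slc31a1 1.15, Gjb5 1.14, Fdft1 1.35 and Trp63 -0.80. Over all cells these genes had 1.44, 1.28, 1.10, 1.49 and -0.71. Fam83b had 1.77 in place of 1.33. Ralgps2, Slc31a1, Fdft1 and Fam83b had means under 50 CPM in RNA-poor cells. They were examined only through RNA-rich cells, so their values are a description. Krt15 and Krt14 had 0.08 and 0.10 in place of -0.50 and -0.27, so the lower share of these basal keratins was not seen in cells outside the classes.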

How the data were processed

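Each sample is 1 sorted keratinocyte. The authors deposited raw read counts, whole numbers for every gene, without normalization. Per the submitters' processing notes, cutadapt 1.13, STAR 2.5.2b, HTSeq 0.6.0 and GRCm38 were used, with order, parameters and annotation not given in the sources used here. Rows comprise 49585 genes and 92 ERCC species, and 49326 identifiers matched a symbol. Counts lack molecular identifiers, so intervals cover counting error only, and strand is not stated, so overlapping genes and close copies such as Gapdh, Ftl1 and tubulins are uncertain.

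With Python 3.11.15, pandas 2.3.3, numpy 2.4.6 and scipy 1.17.1, counts were scaled to CPM over genes and to reads per 1000 ERCC reads. Ratios of means per plate were the measure. No count model was fitted, since cells are not replicates. Scran 1.30.0 size factors were an alternative. Clopper-Pearson intervals were given for shares and Newcombe intervals for their differences, at 95%. Stray reads were estimated by non-negative least squares from 29 genes with a well of at least 1000 reads and at least 20% of wells at or under 1% of it. Per 10000 source reads, 23.9 reached each well of the same lettered row, 15.1 the same column and 2.45 any other well. Doublets were not called. Sorting was meant to place 1 cell in each well, and whether any RNA-rich well held more was not tested. No 2 cells had identical counts.

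Named genes were the 15 highest and 15 lowest by the plate nearer to 0, the 4 most abundant of every list, called list members and 22 fixed genes. One gene chosen by this rule is not reported here. Members and the 38 gene lists were chosen with earlier results of these data known.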

Additional observations from a re-analysis of the deposited data

How the results depend on the processing

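No paired analysis was possible because all cells form 1 group and no label pairs RNA-rich with RNA-poor cells. Shares of genes examined are given as higher by CPM, lower by CPM and, on the ERCC scale, under 1.5-fold, which were 2.42%, 1.49% and 1.52% as reported. They were 11.9%, 7.76% and 3.96% on plate 1 alone and 10.01%, 9.09% and 17.99% on plate 2 alone. With the minimum mean at 10 CPM they were 5.67%, 4.43% and 4.45%, at 200 CPM 0.758%, 0.606% and 0.303%, and with any read 9.70%, 7.24% and 7.27%. A fold of 5/4 gave 8.01%, 5.83% and 0.190%, and a fold of 2 gave 0.353%, 0.136% and 10.6%. Taking the upper and lower 50% of each plate gave 0.896%, 0.597% and 5.45%, and the upper and lower 25% gave 2.52% lower and 0.841% under the fold. Means of log2(CPM + 1) gave 335 higher and 31 lower genes, 9.09% and 0.841%, which share 61 and 12 with the 89 and 55 by ratios of means, with 2.42% under the fold. Subtracting stray reads gave 2.36% lower and 0.787% under the fold, dividing RNA content by the row median 2.61% under the fold, cells with 200000 to 600000 reads 2.28% lower and 2.39% under the fold, and cells outside the G2/M class 2.44% lower and 2.71% under the fold. Division by the row median kept similar shares of genes higher and lower, 1.93% and 1.38%. Only 38 of the 89 higher and 25 of the 55 lower genes were among them.

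Alternatives chosen after the data were seen were leaving out the early differentiation class (2.36% under the fold), the S phase class (3.45% lower, 3.53% under the fold) or both (4.23% higher, 4.04% lower, 5.43% under the fold), and means of log2(CPM + 1) after thinning (13.4% higher). The genes past the fold without both classes held 33 of the 89 higher and 23 of the 55 lower genes. Those without the early differentiation class alone held 48 and 19. Without the early differentiation class the S phase share differed by 23.6 points. CPM without mitochondrial genes, without the 20 most abundant genes and by scran gave 81, 78 and 84 higher and 60, 64 and 63 lower genes.

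Of 42 named genes past the fold, values under 24 alternatives numbered 1007, and 11 changed sign. Without the early differentiation class these were Acer1 (-0.36), Cers4 (-0.0194), Krt1 (-0.15), Mgst1 (-0.0171) and Mvk (-0.31), without both classes Cers4 (-0.64), without the S phase class Mcm5 (-0.0640) and without the G2/M class H2afx (-0.46). Krt17 had -0.75 after division by the row median and -0.0860 with thinned log values, where Trp53inp1 had 0.0879. The cause was not tested. The early differentiation share differed by 19.1 to 40.3 points under the alternatives run for it, all over both plates together. On plate 1 alone the class held 38.7% of RNA-rich and 22.6% of RNA-poor cells, and on plate 2 alone 48.4% and 9.68%. Depth limits genes below the minimum of 50 CPM, which rest on few reads in a cell.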
